A study of Rattus norvegicus with 54 samples.

Results

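The septum of the infarcted rat heart lies away from the ligated artery and from the sheet that is laid over the injured wall, and it is the piece called the remote zone here. Its transcriptome was compared between 6 hearts that received an SMC-EPC bi-level cell sheet after myocardial infarction (MI) and 6 hearts with untreated MI, which makes 12 of the 54 libraries of the study. The members are every library that its title places in the remote zone of those 2 groups. The cell sheet-treated and the untreated group were both female athymic rats of strain F344/NJcl-rnu/rnu, 8 weeks old, with permanent ligation of the left anterior descending artery, and the tissue was taken 1 week later. Athymic rats lack a thymus and with it most T cells, so that they tolerate human cells, and all groups share this background. The sheet joins human smooth muscle cells, made by transdifferentiation of bone marrow mesenchymal stem cells, with human endothelial progenitor cells (EPCs) from blood, and it was placed on the epicardium over the ischemic area. Sham-operated hearts, 6 of them, had the same pieces taken and are quoted as a background level. The labels call the libraries technical replicates whereas the study describes separate hearts, so the p-values measure the spread between these libraries and assume that they are separate animals.

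Remote myocardium is not injured directly but carries the extra load of the lost wall. In the weeks after an infarct its cardiomyocytes are known to lower their oxidative metabolism and calcium handling and to raise fetal genes, while fibroblasts, macrophages and dividing cells accumulate between them. The comparison asks how far these programs differed in the septum when a sheet had been placed elsewhere on the heart.

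The 12 libraries held between 12963330 and 18347983 counts on genes. Levels are given as CPM, the counts of a gene scaled to a common library size with TMM factors over all 54 libraries, and differences as log2 fold changes of the cell sheet-treated over the untreated MI group from edgeR's quasi-likelihood test, with the Benjamini-Hochberg adjusted p across all genes tested. CPM does not correct for gene length, so levels are compared between libraries and not between genes. In this bulk tissue, fewer cells of a type and less RNA per cell cannot be told apart.

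The library labelled cell sheet remote replicate 1 did not look like the other septal pieces. Its 8 cardiomyocyte markers summed to 23026 CPM, whereas the other 5 cell sheet libraries held 44748 to 64474 CPM and the untreated MI libraries 25856 to 42983 CPM. Its 8 myofibroblast markers summed to 4264 CPM, against 157 to 544 CPM in the other 5 cell sheet libraries and 311 to 2212 CPM in untreated MI. Periostin (Postn), a matrix protein of activated fibroblasts, was at 2798 CPM there and at 26 to 308 CPM in the other 5. Counts are therefore given with and without this library, and so are the genes whose call changed or whose fold moved by over 1.5 times without it. In the sham group replicate 5 stood apart, with 1321 CPM of macrophage markers where the group median was 228 CPM, so the upper end of a sham range often belongs to that heart. Its cardiomyocyte markers summed to 32517 CPM, where the other sham hearts held 60107 to 64414 CPM. The lower end of a sham range of cardiomyocyte or metabolic genes can therefore also be that of sham replicate 5. Fits with the sham libraries hold this heart too.

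**Figure D1:**
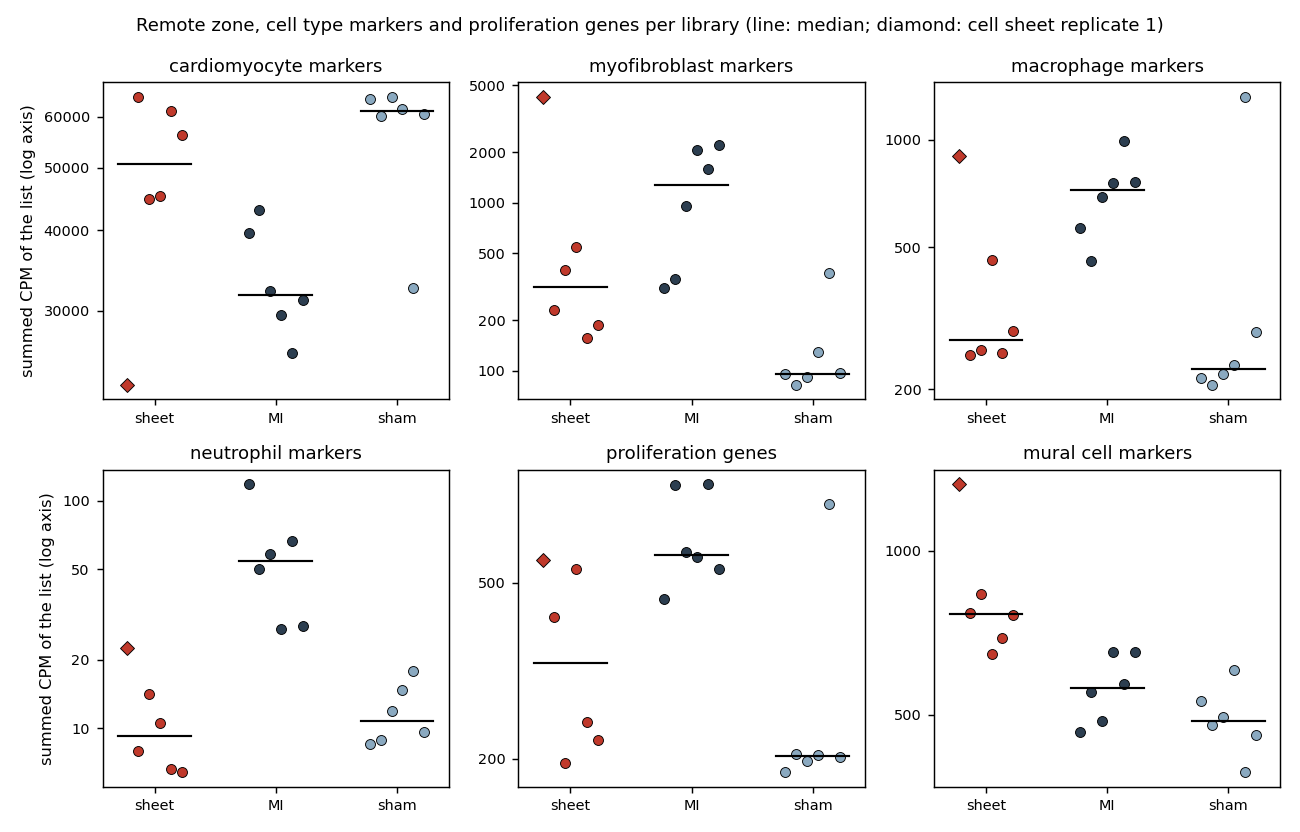
Summed level in CPM (log axis) of 5 cell type marker lists and of the proliferation genes in each remote library of the cell sheet-treated, untreated MI and sham groups, with a line at the median of 6 and a diamond for cell sheet replicate 1. That diamond lies lowest of all 18 libraries for cardiomyocyte markers (23026 CPM) and highest for myofibroblast markers (4264 CPM). The summed neutrophil markers, Lcn2 among them, lie higher in the untreated MI group than in the cell sheet-treated group without overlap.

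Of 15374 genes tested, 2623 (17.1%) differed between the groups, 1579 (10.3%) higher and 1044 (6.79%) lower in the cell sheet-treated group. Without cell sheet replicate 1, 6450 of 15502 genes (41.6%) differed, 3222 (20.8%) higher and 3228 (20.8%) lower. All 2623 genes of the 6 against 6 comparison passed again without it and kept their direction. The median log2 fold change of all genes was 0.0060 with 6 against 6 and -0.0028 without replicate 1. The number of genes ranged from 1096 without MI replicate 5 to 2887 without MI replicate 2 when any library other than cell sheet replicate 1 was left out. It was 1377 and 1405 without MI replicates 3 and 4, and 1098, 1231, 1173 and 1710 without cell sheet replicates 2, 3, 5 and 6. Genes without any overlap between the 6 and 6 libraries numbered 482 in the higher direction (3.14%) and 282 in the lower (1.83%), and 2006 (12.9%) and 1234 (7.96%) without replicate 1.

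Myh11, the smooth muscle myosin heavy chain, had the largest rise among called genes without overlap and with a mean log2 CPM of 1 or more. It stood at 88.7 to 181 CPM (median 149.9) in the cell sheet-treated hearts and at 22.4 to 41.8 CPM (median 30.8) in untreated MI. The lowest treated heart was thus above the highest untreated heart, and also above the sham range of 35.4 to 66.0 CPM. The log2 fold change was 2.196 ± 0.179 (SE, n = 6 and 6, edgeR adjusted p = 0.000169), which is 4.58-fold, and it lay between 2.11 and 2.31 in the 12 fits that each left out 1 library. Of the 20 tested smooth muscle contractile genes, 7 were higher and 0 lower (background 10.3% and 6.79%). Without cell sheet replicate 1 it was 10 and 1 (background 20.8% each way). The list median with all libraries was 0.48, and 4 were higher when MI replicate 5 or cell sheet replicate 2 was left out. Leiomodin (Lmod1), an actin nucleator of smooth muscle, rose 2.46-fold from 2.31 to 5.90 CPM in untreated MI to 5.95 to 18.3 CPM (adjusted p = 0.0168). Synaptopodin 2 (Synpo2), an actin-binding protein of muscle, rose 2.10-fold to 122.5 to 216 CPM from 67.5 to 109 CPM (adjusted p = 0.00602). Kcnmb1, the regulatory subunit of the smooth muscle potassium channel, rose 1.65-fold (adjusted p = 0.0229), a call that was lost without cell sheet replicate 2.

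The best known contractile markers did not pass the test. Smooth muscle actin (Acta2) was at 80.8 to 403 CPM in the treated and 57.2 to 156 CPM in the untreated group, with a log2 difference of 0.52 ± 0.40 (adjusted p = 0.377) that was -0.02 ± 0.27 without cell sheet replicate 1. Transgelin (Tagln) differed by 0.34 ± 0.50 with all libraries and by -0.37 ± 0.35 without that heart, in which it was at 432 CPM. Calponin (Cnn1) was at 3.63 to 32.2 CPM in the treated and at 1.53 to 8.79 CPM in the untreated hearts (1.13 ± 0.60, adjusted p = 0.194), and without that heart the difference was 0.35 ± 0.45 (adjusted p = 0.566). Summed over the 7 mural cell markers, the other 5 treated hearts held 647 to 835 CPM and the untreated hearts 464 to 651 CPM, so that the ranges met at their ends.

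Genes of pericytes, the contractile cells wrapped around capillaries, passed in part. Of 14 tested, 3 were higher and 0 lower, with a list median of -0.02, where 10.3% of all genes were higher and 6.79% lower. With cell sheet replicate 1 left out, 4 were higher and 4 lower, where 20.8% of all genes passed in each direction. Abcc9, the sulfonylurea receptor of the vascular and cardiac KATP channel, rose, with 272 to 492 CPM against 149 to 242 CPM (log2 fold change 1.00 ± 0.15, adjusted p = 0.00602). Cspg4, the pericyte proteoglycan NG2, was at 46.3 to 73.7 CPM against 26.4 to 44.6 CPM (0.74 ± 0.15, adjusted p = 0.0109). Neither gene overlapped between the groups.

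Of 15 Notch genes, 1 was higher and 0 lower with 6 against 6 by edgeR (background 10.3% and 6.79%), and DESeq2 called 1 and 2. The 1 that passed by edgeR was Notch3, the Notch receptor of mural cells. Its levels were 102 to 166 CPM in the treated hearts and 40.1 to 83.4 CPM in untreated MI, again without overlap, and sham hearts held 61.2 to 95.3 CPM. The log2 fold change was 0.97 ± 0.19 (adjusted p = 0.00973). The ligand Jag1 was at 28.3 to 44.1 CPM and 36.7 to 47.2 CPM (-0.36 ± 0.12, adjusted p = 0.0530), and passed as lower without cell sheet replicate 1 (adjusted p = 0.00218). In that fit 3 members of the Notch list were higher and 4 lower, where 20.8% of all genes passed in each direction.

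Endothelial and angiogenic genes passed the test about as often as all genes in the lower direction (6.79%) and not in the higher (10.3%). Of 28 tested, 0 were higher and 2 lower by edgeR (list median -0.13), where an unadjusted p under 0.05 gave 2 and 5 and DESeq2 0 and 4. Without cell sheet replicate 1, 2 were higher and 8 lower (background 20.8% each way). The 2 lower of the 6 against 6 fit became 0 without MI replicates 1 or 5 or cell sheet replicates 2, 3, 4 or 5. Emcn, a sialomucin of capillaries and veins, fell by 0.48 on the log2 scale (adjusted p = 0.0371), from 81.1 to 127 CPM in untreated MI to 53.9 to 92.0 CPM, and it passed in 4 of the 12 fits that left out 1 library, and not with the sham libraries in the fit (adjusted p = 0.0609). Vegfa, the main angiogenic ligand, was at 464 to 884 CPM in the treated and 417 to 772 CPM in the untreated group (0.46 ± 0.20, adjusted p = 0.125, and 0.0187 without cell sheet replicate 1). Pecam1 stood at 263 to 326 CPM and 271 to 484 CPM (-0.39 ± 0.13, adjusted p = 0.0581, and 0.0455 without that heart). The 6 endothelial markers summed to 871 to 1179 CPM in the treated and 935 to 1526 CPM in the untreated group.

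**Figure D2:**
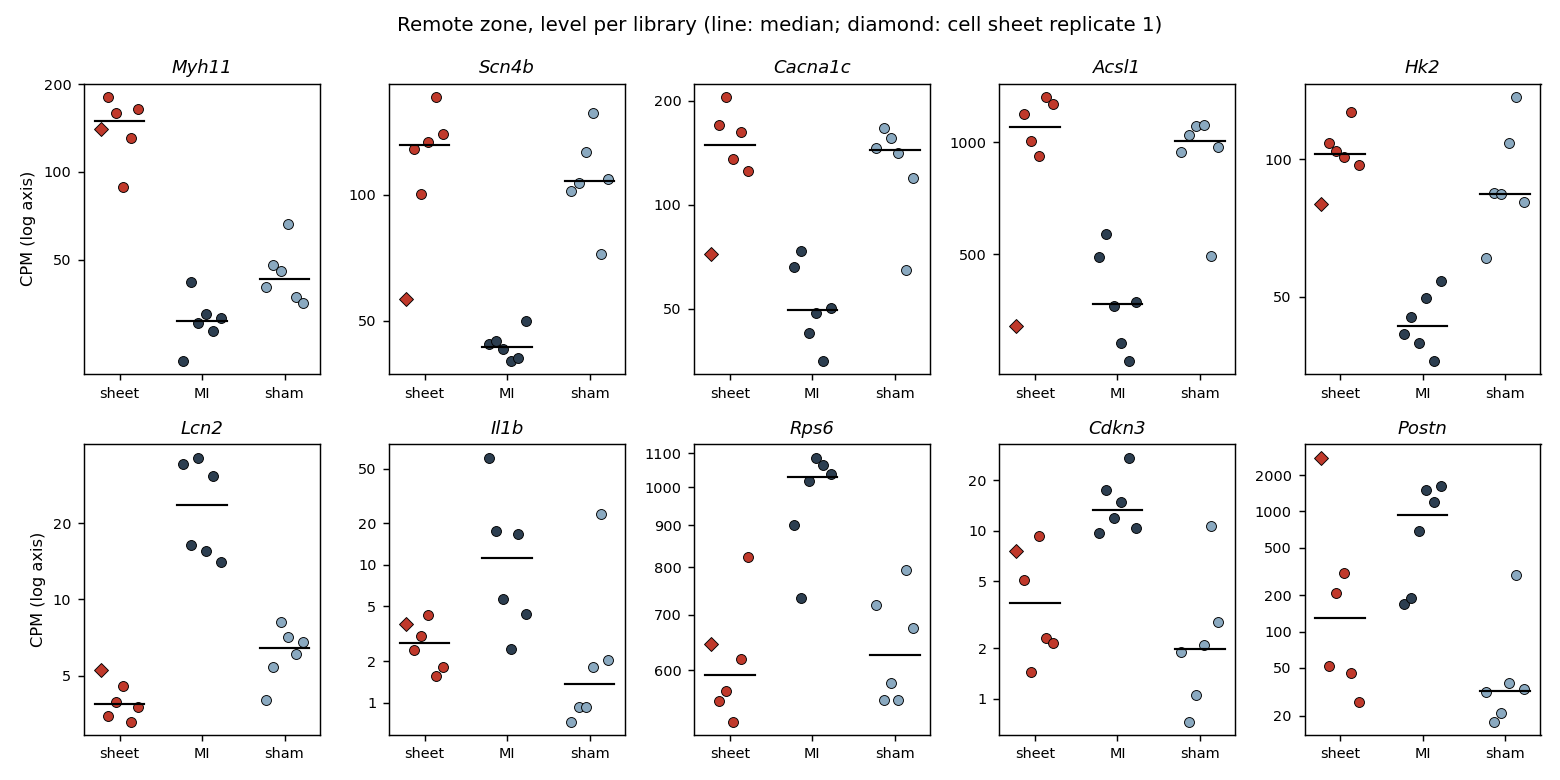
Level in CPM (log axis) of 10 genes in each remote library of the cell sheet-treated, untreated MI and sham groups, with a line at the median and a diamond for cell sheet replicate 1. Myh11, Scn4b and Hk2 lay higher and Lcn2 and Cdkn3 lower in the treated than in the untreated group without overlap, while Postn in cell sheet replicate 1 (2798 CPM) lay above every other library.

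Calcium handling and excitation genes, the ion channels and pumps that set the cardiac action potential and contraction, were often higher. Of 21 genes tested, 11 were higher and 0 lower (background 10.3% and 6.79%), with a list median of 0.88. Without cell sheet replicate 1, 17 were higher and 0 lower (background 20.8% each way) and the median was 1.03. When any of MI replicates 3, 4 or 5 or cell sheet replicates 2 or 5 was left out, 8 passed. Cacna1c, the pore of the L-type calcium channel, was at 72.2 to 205 CPM (median 149) in the treated and 35.3 to 73.6 CPM (median 49.5) in the untreated group (1.45 ± 0.23, adjusted p = 0.00615). The treated value inside the untreated range was that of replicate 1, and the other 5 began at 125 CPM. Ryr2, the calcium release channel, rose 2.13-fold (adjusted p = 0.0144).

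Scn4b, a regulatory sodium channel subunit that was not on that list, was at 56.3 to 171 CPM against 40.0 to 49.8 CPM (1.46 ± 0.20, adjusted p = 0.00427). All treated hearts, replicate 1 included, lay above all untreated hearts, which was a condition for naming Scn4b. The gap junction gene Gja1 rose 1.99-fold (adjusted p = 0.0155), and the sodium-calcium exchanger Slc8a1 1.61-fold (adjusted p = 0.0156). Atp2a2, the SERCA pump that refills the sarcoplasmic reticulum, was at 4386 to 13738 CPM and 3250 to 6589 CPM (1.13 ± 0.29, adjusted p = 0.0241), a call lost if MI replicate 3, 4 or 5, or sheet replicate 2 or 5, was left out. The fold without cell sheet replicate 1 was 2.43 with an adjusted p of 0.000723.

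Structural genes of the sarcomere were also measured. Of 18 tested, 3 were higher and 0 lower (background 10.3% and 6.79%), and 1 was higher without MI replicate 5. Without cell sheet replicate 1 it was 11 and 0 (background 20.8% each way). Mybpc3, the cardiac myosin-binding protein C, was at 1687 to 5024 CPM against 1134 to 2467 CPM (1.06 ± 0.26, adjusted p = 0.0202), a call lost without MI replicate 5. Tnni3, cardiac troponin I, stood at 2048 to 7962 CPM and 3493 to 6030 CPM and did not pass (adjusted p = 0.523). Xirp1, an actin-binding protein of the intercalated disc and a member of the fetal and stretch list, rose 2.18-fold (adjusted p = 0.00610) from 93.7 to 159 CPM to 156 to 311 CPM.

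The natriuretic peptides, secreted by stretched cardiomyocytes, did not pass with all libraries. Nppa ranged from 553 to 5792 CPM (median 1630) in the treated and from 1520 to 11802 CPM (median 3687) in the untreated group (-1.18 ± 0.67, adjusted p = 0.226). Nppa is also on the list of 5 atrial markers. The mean log2 level of that list was 6.00 and 5.63 in cell sheet replicates 1 and 4. It was 5.47 and 4.91 in MI replicates 1 and 5, and 2.16 to 3.65 in the other libraries compared. The part of atrial tissue in the Nppa values was not tested. Nppb ranged from 259 to 634 CPM and from 325 to 1043 CPM (-0.68 ± 0.29, adjusted p = 0.115). Without cell sheet replicate 1 both passed as lower, Nppa by -1.71 ± 0.63 (adjusted p = 0.0424) and Nppb by -0.82 ± 0.28 (adjusted p = 0.0303). Of the 17 tested fetal and stretch genes, 4 were higher and 0 lower with 6 against 6 (background 10.3% and 6.79%). Without that heart 4 were higher and 2 lower (background 20.8% each way). The 4 of the 6 against 6 fit became 2 without MI replicates 1, 3 or 5 or cell sheet replicates 2, 3, 5 or 6.

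For the myosin heavy chains of the cardiomyocyte, cell sheet replicate 3 stood apart from every other heart. In the adult rat the fast chain Myh6 prevails over the slow, fetal chain Myh7, and stress moves the balance toward Myh7. In cell sheet replicate 3 Myh6 was at 194 CPM and Myh7 at 23718 CPM, so that Myh7 made up 99.2% of their sum. In the other 17 remote libraries that share was 8.11% to 64.9%. The same heart held 99.2% Myh7 in its border and in its infarct piece. Myh7 differed between the groups by 1.34 ± 0.70 with all libraries (adjusted p = 0.188) and by -0.15 without replicate 3, and Myh6 by 1.22 ± 0.66 (adjusted p = 0.207), passing as higher only in the fit without replicate 3.

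**Figure D3:**
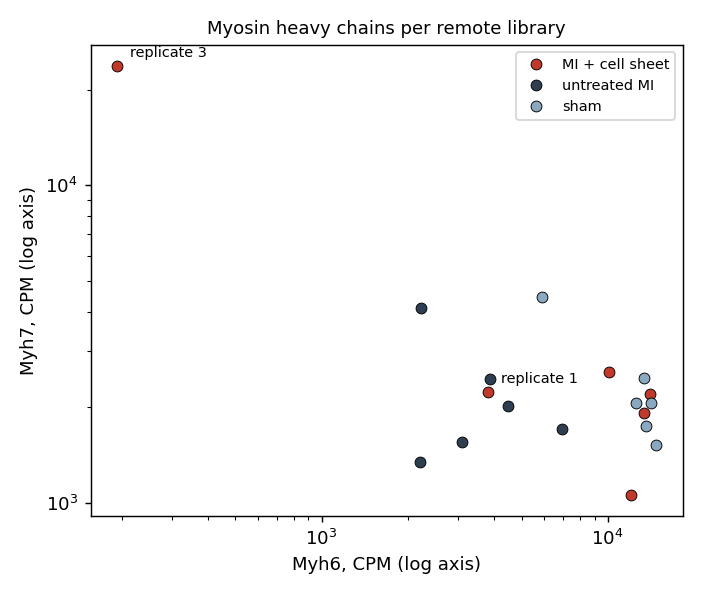
Myh7 against Myh6 in CPM, both on log axes, for each of the 18 remote libraries of the cell sheet-treated, untreated MI and sham groups. Cell sheet replicate 3 lies alone at 194 CPM of Myh6 and 23718 CPM of Myh7.

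Genes of energy metabolism were often higher. Of 26 tested genes of fatty acid uptake and oxidation, the main fuel pathway of the adult heart, 8 were higher and 0 lower (median 0.73), where 10.3% of all genes were higher. In the fit without cell sheet replicate 1, 23 were higher and 0 lower (median 0.89), where 20.8% of all genes were higher. Of 23 genes of the TCA cycle and of branched-chain amino acid and ketone use, 12 were higher and 0 lower (median 0.71), and 22 and 0 without that heart. The numbers fell to 4 without MI replicates 3, 4 or 5 or cell sheet replicates 2, 5 or 6 for fatty acid genes, and to 3 without MI replicate 5 for TCA genes. Acsl1, which activates fatty acids with coenzyme A, was at 322 to 1322 CPM (median 1099.5) against 259 to 565 CPM (median 368), with replicate 1 the lowest treated heart (1.35 ± 0.30, adjusted p = 0.0140). The nuclear receptor Ppara, a regulator of these genes, rose 2.28-fold (adjusted p = 0.0104) and the citrate synthase gene Cs 2.03-fold (adjusted p = 0.0115). Bdh1, which oxidizes the ketone body hydroxybutyrate, rose 2.35-fold (adjusted p = 0.0194), a call lost without MI replicate 5.

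Among glucose genes, hexokinase 2 (Hk2), the insulin-regulated enzyme that traps glucose in muscle, was at 79.9 to 127 CPM (median 103) in treated and 36.1 to 54.1 CPM (median 43.2) in untreated hearts. Every treated heart, replicate 1 included, exceeded every untreated heart, and sham hearts held 60.8 to 137 CPM. The log2 fold change was 1.2 ± 0.12 (adjusted p = 0.000991) and 1.26 ± 0.11 without replicate 1. Slc2a4, the insulin-responsive glucose transporter GLUT4, rose 2.21-fold (adjusted p = 0.0173). Of the 26 tested genes of glucose uptake and glycolysis, 8 were higher and 0 lower (background 10.3% and 6.79%), 19 and 2 without replicate 1 (20.8% each way), and 3 were higher without MI replicate 5.

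Respiratory chain subunits passed in numbers below the background of 10.3% higher and 6.79% lower with 6 against 6. Of 37 complex I subunits tested, 1 was higher and 0 lower (median 0.02). Without cell sheet replicate 1, where 20.8% of all genes passed in each direction, 9 were higher and 1 lower. Of 43 subunits of complexes II to V, 3 were higher and 2 lower. Without that library it was 17 and 2, with the 17 above that background. Of the 6 against 6 counts, the 3 became 1 without MI replicates 3, 4 or 5 or cell sheet replicates 2 or 5. The 2 lower became 0 without MI replicates 3, 4 or 5 or cell sheet replicates 2 or 4. Sdha, the catalytic subunit of succinate dehydrogenase, rose 2.04-fold (adjusted p = 0.0113). Ndufs1, the core complex I subunit that passed, was at 497 to 1455 CPM against 465 to 801 CPM (adjusted p = 0.0252), and its call was lost if MI replicate 3, 4 or 5, or sheet replicate 2, 3 or 5, was left out. Catalase (Cat), which removes peroxide, rose 2.41-fold (adjusted p = 0.0116), whereas the secreted glutathione peroxidase Gpx3 fell by 1.04 on the log2 scale (adjusted p = 0.0123), from 626 to 1129 CPM to 314 to 713 CPM. Sham hearts held 494 to 1113 CPM of Acsl1 and 64.9 to 167 CPM of Cacna1c, ranges that reach above the untreated MI hearts. Summed cardiomyocyte markers were also higher in the treated hearts other than replicate 1, as given above. The mean log2 level of that list overlapped through cell sheet replicate 3. It was at 11.90 there, below MI replicates 1 and 2, the latter at 12.16. Of the 8 markers, 2 were higher and 0 lower with 6 against 6, and 4 and 0 without cell sheet replicate 1. The part of cardiomyocyte markers in these rises was not tested.

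Cytosolic ribosomal protein genes were often lower. Of 73 tested, 0 were higher and 30 lower (background 6.79%), with a median of -0.45. Without cell sheet replicate 1 it was 0 and 40 (background 20.8% each way). The number lower varied from 12 without cell sheet replicate 2 to 45 without cell sheet replicate 6. Summed over the list, treated hearts held 24060 to 39290 CPM (median 27927) and untreated hearts 30047 to 45359 CPM (median 41037), and sham hearts 22757 to 32183 CPM. Rpl39 was at 54.1 to 158 CPM and 137 to 229 CPM (-1.05 ± 0.24, adjusted p = 0.0155), and Rps6 at 519 to 824 CPM and 733 to 1087 CPM (-0.67 ± 0.15, adjusted p = 0.0139). Rplp0, a stalk protein of the large subunit, was at 467 to 792 CPM and 544 to 845 CPM and did not pass (adjusted p = 0.232). Ribosomal protein genes have processed copies in the genome to which reads can also align, so their levels are uncertain.

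The share of counts that fell outside annotated genes moved with the groups. It was 23.1% ± 2.84 (SD, n = 6) in the treated and 31.2% ± 4.11 (SD, n = 6) in the untreated group, a difference of -8.11 percentage points by an exact 2-sided permutation test (p = 0.00649, where 0.00216 is the smallest p that 924 splits allow). Replicate 1 had the lowest treated share, 18%, and MI replicate 6 the lowest untreated, 24.1%. The part of this share in the gene results was not tested.

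**Figure D4:**
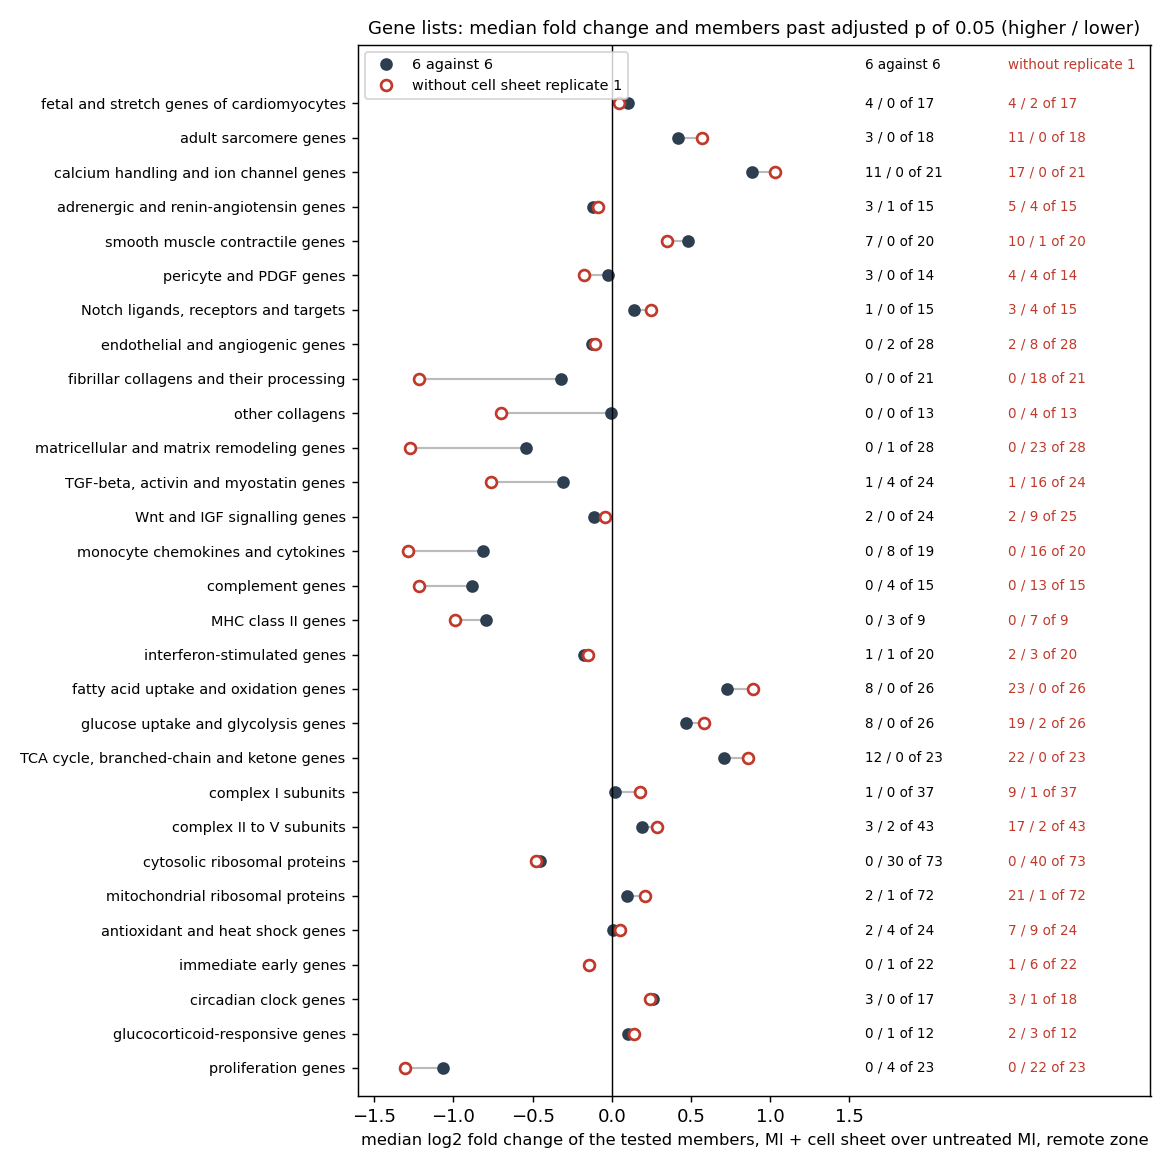
Median log2 fold change of the tested members of each of 29 gene lists, cell sheet-treated over untreated MI in the remote zone, for 6 against 6 libraries (filled) and without cell sheet replicate 1 (open), with the number of members higher and lower past an adjusted p of 0.05 at the right. Metabolic and calcium handling lists lie to the right of 0 in both, and matrix lists shift to the left without replicate 1, as for fibrillar collagens from -0.32 to -1.22.

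Several inflammatory genes were lower in the treated septum. Lipocalin 2 (Lcn2), a siderophore-binding protein of neutrophils and stressed cells, had the largest fall among the inflammatory genes given here without overlap. It was at 3.29 to 5.27 CPM (median 3.84) in the treated and 14 to 36.4 CPM (median 23.7) in the untreated group, while sham hearts held 4.00 to 8.11 CPM. It fell by 2.62 on the log2 scale (SE 0.27, adjusted p = 0.000991), to 0.163 of the untreated level. Replicate 1 was at 5.27 CPM, and lack of overlap was a condition for naming Lcn2. Ccl3, Il1rn and Il1b, given below, fell further but overlapped between the groups. Pla2g2a, a secreted phospholipase, was at 25.5 to 32.5 CPM against 41.1 to 220 CPM (-1.92 ± 0.41, adjusted p = 0.0116). Of 5 neutrophil markers tested, Lcn2 among them, 3 were lower (background 6.79%), and 5 without cell sheet replicate 1 (background 20.8%). With all libraries DESeq2 called 5 lower. The list of 6, which also holds Lcn2, summed to 6.4 to 22.5 CPM in the treated and 27.2 to 119 CPM in the untreated group. The mean log2 level of that list overlapped through cell sheet replicate 1, at 1.37 against 1.17 and 1.28 in MI replicates 4 and 6.

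Of 19 tested monocyte chemokines and cytokines, 0 were higher and 8 lower (background 10.3% and 6.79%), with a median of -0.81. Without cell sheet replicate 1, 16 of 20 were lower (background 20.8%). Leaving out MI replicate 5 or cell sheet replicates 2 or 5 left 5. Ccl3, a macrophage chemokine, was at 0.214 to 2.5 CPM against 1.89 to 35.0 CPM (-3.37 ± 0.76, adjusted p = 0.0146), with MI replicate 1 the highest. The interleukin 1 receptor antagonist Il1rn was at 1.32 to 14.3 CPM against 11 to 71.7 CPM (-2.69 ± 0.65, adjusted p = 0.0177, and -3.55 ± 0.53 without replicate 1), and the 5 treated hearts other than replicate 1 reached 3.99 CPM at most. Il1b itself stood at 1.57 to 4.35 CPM and 2.45 to 60.1 CPM (-2.66 ± 0.68, adjusted p = 0.0219), and missed the threshold without cell sheet replicate 2 or 5. The monocyte attractant Ccl2 was at 9.08 to 45.1 CPM and 29.7 to 72.8 CPM, with an adjusted p of 0.0568 that became 0.00106 without cell sheet replicate 1.

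Complement and antigen presentation genes passed in the lower direction above the background of 6.79%. That background was 20.8% without cell sheet replicate 1. Of 15 complement genes tested, 4 were lower, 13 without cell sheet replicate 1, and 1 without MI replicates 3, 4 or 5 or cell sheet replicates 2, 3, 5 or 6. C1qb, a chain of the C1q recognition protein made by macrophages, was at 38.9 to 115 CPM and 96.2 to 178 CPM (-1.10 ± 0.26, adjusted p = 0.0160). Of 9 MHC class II genes, 3 were lower, 7 without cell sheet replicate 1, and 0 without MI replicates 3 or 4 or cell sheet replicates 2, 3 or 5. RT1-Da was at 53.6 to 151 CPM and 112 to 225 CPM (adjusted p = 0.0252), and it passed in 6 of the 12 fits that left out 1 library. Cd74, the invariant chain, stood at 351 to 632 CPM and 455 to 650 CPM and did not pass (adjusted p = 0.465). The 8 macrophage markers summed to 249 to 459 CPM in the treated hearts other than replicate 1, which held 899.7 CPM, and to 457 to 993 CPM in untreated MI, and their part in these falls was not tested. When the sham libraries entered the same fit, the adjusted p became 0.150 for C1qb, 0.459 for RT1-Da, 0.0506 for Il1b and 0.0915 for Il1rn. Those libraries include sham replicate 5, whose MHC class II genes summed to 15988 CPM, where the other sham hearts held 717 to 1093 CPM. The part of that heart in these values was not tested.

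The matrix results depended on cell sheet replicate 1. Of 21 fibrillar collagen genes and their processing enzymes, 0 were higher and 0 lower with 6 against 6 by edgeR, likewise 0 and 0 at an unadjusted p under 0.05 and by DESeq2, and 0 were higher and 18 lower without that heart (background 20.8% in each direction). Of 28 matricellular and remodeling genes, 1 and then 23 were lower by edgeR, and with all libraries DESeq2 called 1 higher and 2 lower. Col1a1, the main collagen of scar, was at 425 to 2360 CPM in the 5 other treated hearts, at 10868 CPM in replicate 1 and at 944 to 5284 CPM in untreated MI. Its log2 difference was -0.20 ± 0.79 (adjusted p = 0.880) with all libraries and -1.64 ± 0.53 (adjusted p = 0.0250) without replicate 1. Col3a1 gave -0.46 ± 0.66 and -1.48 ± 0.47 in the same 2 fits, and fibronectin (Fn1) -0.41 ± 0.68 and -1.65 ± 0.42.

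Periostin and osteopontin had wide ranges. Postn was at 171 to 1614 CPM in untreated MI and differed by -0.65 ± 1.03 with all libraries (adjusted p = 0.681) and by -2.82 ± 0.75 without replicate 1 (adjusted p = 0.00937). Spp1, osteopontin of macrophages, was at 1.36 to 11.7 CPM in the 5 treated hearts and 5.77 to 413 CPM in untreated MI, and differed by -1.16 ± 1.34 with all libraries (adjusted p = 0.556) and by -4.66 ± 1.07 without replicate 1 (adjusted p = 0.00402). Timp1, a protease inhibitor, did not overlap between those 5 hearts, at 10.4 to 23.9 CPM, and untreated MI, at 25.1 to 147 CPM (-2.43 ± 0.42, adjusted p = 0.000749), but with replicate 1 at 98.3 CPM the difference was -1.47 ± 0.61 (adjusted p = 0.104). The member that passed with all libraries by edgeR was decorin (Dcn), a small proteoglycan, at 690 to 1284 CPM against 975 to 1551 CPM (-0.60 ± 0.18, adjusted p = 0.0362), and it passed in 3 of the 12 fits that left out 1 library.

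Among TGF-beta, activin and related ligands, 4 of 24 were lower and 1 higher (background 6.79% and 10.3%), and 16 and 1 without cell sheet replicate 1 (20.8% each way). The 4 became 2 without MI replicates 4 or 5 or cell sheet replicates 2, 3 or 5. Tgfb1, the fibrogenic ligand, was at 26.6 to 64.5 CPM and 49.8 to 87.8 CPM (-0.90 ± 0.23, adjusted p = 0.0238), and its call was lost in the same 5 fits and with the sham libraries in the fit (adjusted p = 0.0925). Wnt5a, a ligand of noncanonical Wnt signalling, rose 1.89-fold, from 9.95 to 17.2 CPM to 17.4 to 31.4 CPM (adjusted p = 0.00777). It did not overlap, and neither did Znrf3, a membrane ligase that removes Wnt receptors, with 5.65 to 11.9 CPM against 2.05 to 4.58 CPM (1.35 ± 0.23, adjusted p = 0.00668).

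Some cell cycle genes were lower in the treated septum. Of 23 proliferation genes tested, 0 were higher and 4 lower (median -1.06), where 6.79% of all genes were lower. Leaving out cell sheet replicate 1 gave 22 lower, where 20.8% of all genes were, whereas 0 passed without MI replicate 5 or cell sheet replicate 5. With all libraries DESeq2 called 13 lower and 20 had an unadjusted p under 0.05. Cdkn3, a phosphatase of mitotic cells that was not on the list, was at 1.45 to 9.35 CPM (median 3.69) against 9.69 to 27.2 CPM (median 13.3), and it did not overlap (-1.72 ± 0.44, adjusted p = 0.0218, missed without MI replicate 5 or cell sheet replicate 5). Cenpk, a kinetochore protein and also off the list, was at 0.521 to 2.12 CPM against 2.52 to 5.41 CPM (-1.496 ± 0.32, adjusted p = 0.0120). Ube2t, a ubiquitin-conjugating enzyme of DNA repair and off the list too, was at 0.765 to 2.71 CPM and 2.83 to 6.64 CPM (-1.44 ± 0.34, adjusted p = 0.0175). Of the list, Ube2c, the enzyme that serves the anaphase-promoting complex, fell by 1.49 on the log2 scale (adjusted p = 0.0284), a call lost if MI replicate 4 or 5, or sheet replicate 2, 3 or 5, was left out. Aurka, a mitotic kinase, was at 1.6 to 8.52 CPM against 6.72 to 13.9 CPM (adjusted p = 0.0374) and Bub1, a checkpoint kinase, at 5.91 to 20.1 CPM against 18.8 to 33.5 CPM (adjusted p = 0.0329), and they passed in 3 and 4 of the 12 fits that left out 1 library. With the sham libraries in the fit the adjusted p became 0.0632 for Ube2t, 0.0852 for Ube2c, 0.0882 for Aurka and 0.0689 for Bub1. Sham replicate 5 held 757 CPM of the proliferation list there and the other sham hearts 186 to 205 CPM, and its part was not tested.

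The defining genes of the list did not pass with all libraries. Mki67, the marker of cycling cells, was at 10.9 to 70.6 CPM and 50.1 to 118 CPM (-0.99 ± 0.42, adjusted p = 0.115). Top2a, the DNA topoisomerase of dividing cells, gave -1.11 ± 0.44 (adjusted p = 0.0920), and the mitotic kinase Cdk1 -1.09 ± 0.46 (adjusted p = 0.108). Without cell sheet replicate 1 the adjusted p values were 0.0320, 0.0175 and 0.0181. Summed over the list, the treated hearts held 196 to 563 CPM and the untreated hearts 461 to 837 CPM.

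Promoters of cell cycle genes are known for CCAAT boxes and for the CHR element TTTGAA, which serve periodic transcription. Of the 23 listed genes, 18 had a promoter in the RefSeq table (GRCr8). Within the 250 bases before the start site, read on both strands, CCAAT was found in 13 of the 18 (72.2%), against 34.3% of all 27457 promoters, and TTTGAA in 6 of the 18 (33.3%), against 16% of all. The 160 bases before the start site of Cdk1 and Top2a, from the list, and of Cdkn3 are shown because each holds both motifs, which are in capitals on whichever strand they were read. Those of Aurka and Bub1, 2 list members that fell, hold neither in that window.
Cdkn3, chr15:22502226-22502385, strand +: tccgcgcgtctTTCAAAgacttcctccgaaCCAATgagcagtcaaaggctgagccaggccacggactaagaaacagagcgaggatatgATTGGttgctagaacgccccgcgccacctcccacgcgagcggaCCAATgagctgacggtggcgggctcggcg
Cdk1, chr20:19265133-19265292, strand +: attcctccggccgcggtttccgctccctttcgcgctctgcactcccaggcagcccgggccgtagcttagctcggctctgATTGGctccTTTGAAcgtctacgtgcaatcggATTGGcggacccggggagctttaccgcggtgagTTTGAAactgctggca
Top2a, chr10:84473094-84473253, strand -: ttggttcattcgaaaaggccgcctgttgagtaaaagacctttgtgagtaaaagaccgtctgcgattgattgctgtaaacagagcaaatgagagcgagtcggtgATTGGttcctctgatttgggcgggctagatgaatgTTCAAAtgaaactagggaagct
In Cdkn3 the 3 CCAAT boxes begin 130, 72 and 29 bases before the start site, and in Cdk1 the 2 CHR elements begin 72 and 16 bases before it. A match describes these letters and not a bound site.

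Other genes whose groups did not overlap were less tied to a listed program. Adcy1, an adenylyl cyclase, was at 5.43 to 23.4 CPM against 1.35 to 5.31 CPM (1.90 ± 0.35, adjusted p = 0.00819). Bche, butyrylcholinesterase, rose 3.54-fold, with 13.6 to 38.8 CPM against 4.30 to 11.2 CPM (adjusted p = 0.00478). Stum, named after a fly gene of mechanosensory neurons, was at 2.74 to 4.02 CPM against 0.663 to 1.98 CPM, and sham hearts held 1.12 to 2.42 CPM (adjusted p = 0.00819). Susd5 was at 4.94 to 10.01 CPM against 1.6 to 4.31 CPM (adjusted p = 0.00938), and Tmc7, of the transmembrane channel-like family, at 6.73 to 10.8 CPM against 2.48 to 5.46 CPM (adjusted p = 0.00671). Myh11, Susd5, Stum and Notch3 had treated levels above the highest sham heart, unlike Adcy1, whose sham range was 7.02 to 18.3 CPM.

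Whether the effect of the sheet differed between the remote zone and the zones nearer to it was tested within hearts, as the difference of the effects with the animal as a block. No gene passed against the border zone (0 of 16784, or 0%) or against the infarct zone (0 of 16902, or 0%) by edgeR, although 3430 and 4190 genes had an unadjusted p under 0.05, and DESeq2 called 1183 and 1801. Without MI replicate 6 edgeR called 84 and 3. Without the heart of cell sheet replicate 1, edgeR called 216 of 16901 genes (1.28%) against the border zone, 52 (0.308%) more positive and 164 (0.97%) more negative in the remote zone, and 2011 of 17041 (11.8%) against the infarct zone. Of the latter, 651 (3.82%) had a more positive and 1360 (7.98%) a more negative effect in the remote zone. They included 16 of 21 fibrillar collagen genes and 16 of 23 proliferation genes, all with the more negative effect there. Against the border zone 3 of the same 21 and, in the matricellular list, 3 of 28 passed.

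Myh11 and Notch3 were also measured in the other zones of the same hearts. Myh11 was at 102 to 161 CPM in the treated and 20.6 to 72.9 CPM in the untreated border zone, and at 109 to 209.9 CPM and 32.8 to 165 CPM in the infarct zone. Its rise in the remote zone exceeded that in the border zone by 0.70 ± 0.21 (adjusted p = 0.123) and that in the infarct zone by 1.23 ± 0.30 (adjusted p = 0.0999, and 0.0344 without cell sheet replicate 1). Notch3 was at 182 to 298 CPM against 31.5 to 104 CPM in the border zone and at 137 to 226 CPM against 43.1 to 128 CPM in the infarct zone. Its zone differences were -0.65 ± 0.26 (adjusted p = 0.205) and 0.12 ± 0.25 (adjusted p = 0.779).

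The groups overlapped in the infarct zone for Hk2 and Lcn2. Hk2 stood at 67.6 to 96.3 CPM and 35.3 to 48.0 CPM in the border zone, without overlap, and at 41.2 to 75.4 CPM and 27.8 to 59.8 CPM in the infarct zone. Its effect was larger in the remote than in the infarct zone by 0.87 ± 0.19 (adjusted p = 0.0999, and 0.0223 without cell sheet replicate 1). Lcn2 was at 7.88 to 25.7 CPM and 14.5 to 36.5 CPM in the infarct zone, and its fall in the remote zone was greater by -1.61 ± 0.41 (adjusted p = 0.0999, and 0.0304 without that heart). Against the border zone the differences were 0.26 ± 0.11 for Hk2 (adjusted p = 0.231) and -0.71 ± 0.75 for Lcn2 (adjusted p = 0.605), and neither passed without that heart.

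**Figure D5:**
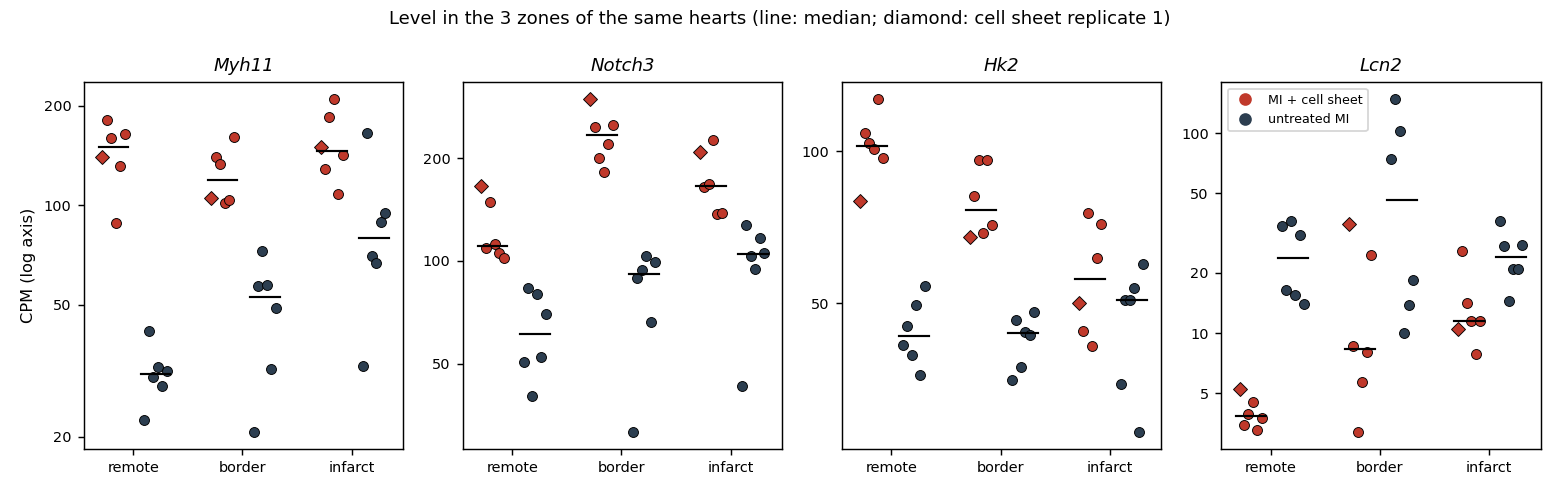
Level in CPM (log axis) of Myh11, Notch3, Hk2 and Lcn2 in the remote, border and infarct pieces of the same hearts, with a line at the median of 6 and a diamond for cell sheet replicate 1. Notch3 does not overlap between the treated and untreated groups in any of the 3 zones, while Myh11 overlaps in the infarct zone, where untreated hearts reach 165 CPM.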

How the data were processed

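RNA from the tissue pieces was prepared as polyA libraries and sequenced as paired reads by the authors, who aligned them with STAR to the rat genome only (mRatBN7.2) although the sheets were human. The deposited values are raw counts per gene, 40319 genes and 5 summary lines in each of 54 libraries. The program that counted and its strand setting are not given in the sources used here. The summary lines entered neither the library sizes nor the tests, and took 23.4% to 40.3% of the counts in the 12 libraries compared.

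Counts were tested with edgeR 4.0.16 in R 4.3.3 (TMM factors, filterByExpr, quasi-likelihood F test, adjusted p under 0.05), on the 6 cell sheet and 6 untreated MI remote libraries, again without cell sheet replicate 1, and for zone differences on 24 libraries with the animal as a block. An offset of 0.1 CPM was added before averaging log2 levels. DESeq2 1.42.0 and limma 3.58.1 served as alternatives. The fits were also run on simulated data with a capped spread and no outlying library. That setting is easier than these data, and no result here rests on it. No 2 libraries of a group were identical, and their counts differed by at least 13.8 times the sampling noise as a chi-square per degree of freedom.

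The comparison, and with it its members, and the gene lists were chosen with earlier results of these data known, while each library entered by its title. The result for 1 gene is not reported here. Genes were named by rule as the 8 largest rises and falls past the threshold, with and without that library, given separate groups and a mean log2 CPM from 1 up, and as the leading and most changed members of each list. Lmod1, Synpo2, Kcnmb1, Slc8a1, Gja1, Ppara, Cs, C1qb, Aurka and Bub1 were added as list members after their values were seen.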

Additional observations from a re-analysis of the deposited data

Results flagged for a closer look

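Of 162 groups of 6 values examined, 20 had a lowest or highest library separated from the others by more than Dixon's critical value. A rate of about 1 in 20 would hold for independent groups of normally distributed values. These groups are CPM values of the same 12 libraries, so the 20 cannot be set against that rate. Cell sheet replicate 1 was the separated library in 14 of the 20. It was highest for Acta2 (403 CPM), Tagln (432 CPM), Cnn1 (32.2 CPM), Col1a1 (10868 CPM), Col3a1 (17518 CPM), Fn1 (2623 CPM), Postn (2798 CPM), Spp1 (320.1 CPM), Timp1 (98.3 CPM), Il1rn (14.3 CPM) and Ccl3 (2.5 CPM). It was lowest for Myocd (49.9 CPM), Ryr2 (833 CPM) and Ndufs1 (497 CPM).

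Cell sheet replicate 3 was separated for Myh7, at 23718 CPM. Cell sheet replicate 5 was separated for Pla2g2a, at 25.5 CPM, which is its lowest value in the treated group. MI replicate 1 was highest for Il1b (60.1 CPM) and Ccl3 (35.0 CPM), and MI replicate 5 for Ccl2 (72.8 CPM) and Maff (64.3 CPM).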

How the results depend on the processing

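The comparison gave 2623 genes, and 3831 with DESeq2, 2567 with DESeq2's size factors in edgeR, 2194 with library size alone, 1774 without a filter, 2667 with at least 10 counts in every library and 2630 with the sham libraries in the fit. It gave 7062 with limma-voom and sample weights. Leaving out 1 library gave 1096 to 6450. Without cell sheet replicate 1, DESeq2 gave 6886, library size alone 6436 and the replicate block 6128, and without replicates 1 and 3 together, an alternative chosen after seeing the data, 5684. With the replicate block and all 12 libraries it gave 3. Same-numbered libraries did not evidently deviate together (6 correlations from -0.46 to 0.45, 1 of 6 best with its own number). With 6 pairs this check cannot exclude that the numbers pair the rats.

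The difference in the share outside genes lay between -9.52 and -7.11 points when 1 library was left out. The zone differences gave 0 genes in edgeR under every setting with all animals, and with DESeq2 1183 (border) and 1801 (infarct). Leaving out 1 animal gave 0 to 216 and 0 to 2011. Of the 56 genes past the threshold that were followed individually, 42 stayed past it under every alternative that kept all 12 libraries, the block aside, and 36 when any 1 library was left out. Acta2 became -0.019, -0.031, -0.13, -0.097 and -0.054 and Tagln -0.37, -0.38, -0.48, -0.40 and -0.38 in the 5 fits without cell sheet replicate 1 (edgeR, DESeq2, library size, block, and without replicate 3 too), and Tagln -0.059 with limma-voom. Leaving out 1 library gave -0.019 to 0.66 for Acta2, -0.37 to 0.57 for Tagln and -0.15 to 1.62 for Myh7. Myh7 became -0.15 without cell sheet replicate 3 and -0.20 without replicates 1 and 3. Col1a1 lay between -1.64 and 0.045 when 1 library was left out, and was above 0 without MI replicate 6 or cell sheet replicates 2, 5 or 6 (0.045, 0.015, 0.028 and 0.029). Beyond the library left out, the cause was not tested. Genes of few counts, such as Cenpk and Ccl3, rest on the shallowest values.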

Other observations

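Other gene groups are given against a background of 10.3% of all genes higher and 6.79% lower with 6 against 6 libraries, and of 20.8% in each direction without cell sheet replicate 1. Of 72 mitochondrial ribosomal protein genes tested, 2 were higher and 1 lower, and 21 and 1 without cell sheet replicate 1. Of 15 adrenergic and renin-angiotensin genes, 3 were higher and 1 lower, and 5 and 4 without that heart. Adra1a, the alpha-1A adrenergic receptor of cardiomyocytes, was at 92.6 to 364 CPM in the treated and 77.7 to 136 CPM in the untreated group (0.87 ± 0.26, edgeR adjusted p = 0.036), and Ednrb, the endothelin B receptor, at 56.8 to 86.4 CPM and 67.9 to 128 CPM (-0.64 ± 0.16, adjusted p = 0.0218). They passed in 3 and 7 of the 12 fits that left out 1 library.

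Of 24 antioxidant and heat shock genes, 2 were higher and 4 lower, and 7 and 9 without cell sheet replicate 1. Of 17 circadian clock genes 3 were higher and 0 lower, and 3 and 1 of 18 without that heart. Per1, a clock repressor, was at 20.1 to 111 CPM and 21.3 to 36.1 CPM (0.98 ± 0.31, adjusted p = 0.0463) and passed in 2 of the 12 fits. Of 22 immediate early genes, 0 were higher and 1 lower, and 1 and 6 without that heart. Of 12 glucocorticoid-responsive genes, 0 were higher and 1 lower, and 2 and 3. Of 20 interferon-stimulated genes 1 was higher and 1 lower, and 2 and 3. Of 24 Wnt and IGF genes 2 were higher and 0 lower, and 2 and 9 of 25. Of 13 other collagen genes 0 were higher and 0 lower by edgeR, as by DESeq2 and at an unadjusted p under 0.05, and 0 and 4 without that heart.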
